A study of Mus musculus with 2 samples.

Results

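The SOX and KLF genes of the mouse are 2 families of DNA-binding transcription factors, and their transcript levels were taken from total RNA of the embryonic heart. Members are the protein-coding genes whose symbol is Sox or Klf followed by a number alone, matched by gene identifier to the mouse annotation, so that Sry, the founding gene of the SOX family, is not among them. The rule uses names and not measured values, and it gave 19 SOX and 17 KLF genes, 36 of 21474 protein-coding genes and of 43346 mouse genes in the files. The study holds 2 total RNA-seq libraries of healthy B6NCrl embryos at embryonic day 11.5, with no treatment, transgene or deletion, made from hearts of both sexes pooled. Replicate 1 pooled 109 embryos and the number for replicate 2 is not stated in the labels. Each library started from 10 ng of RNA. The labels give separate biosamples with a shared donor identifier, so the spread between the libraries may be partly technical. With 1 group there is no contrast between conditions, and the questions are which members the tissue held, at what level, and how far the pools differed.

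SOX proteins bind DNA through a single HMG box, which fits into the minor groove and bends the helix. Most of them regulate genes together with a partner protein, and the family is divided into lettered groups by the sequence of the box. In the embryonic heart, group C and group E genes are known from the outflow tract, cushion and valve mesenchyme, and group F genes from endothelium and endocardium. KLF proteins bind GC-rich and CACCC sequences through a cluster of 3 C2H2 zinc fingers at their C-terminal end. The groups differ in their N-terminal parts: group 1 recruits the co-repressor CtBP, group 2 consists mainly of activators and group 3 recruits the co-repressor Sin3.

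Sequences of the DNA-binding domains show how far some of the members compared below resemble each other. The coding bases of the HMG box (222 bases, 74 codons) and of the 3 zinc fingers (243 bases, 81 codons) were read 5′ to 3′ from annotated transcripts on GRCm38. The most abundant group C genes are shown by Sox4 at chr13:28952632-28952853 on the minus strand and Sox11 at chr12:27342049-27342270 on the minus strand. Capitals mark bases of Sox11 that differ from Sox4.
Sox4: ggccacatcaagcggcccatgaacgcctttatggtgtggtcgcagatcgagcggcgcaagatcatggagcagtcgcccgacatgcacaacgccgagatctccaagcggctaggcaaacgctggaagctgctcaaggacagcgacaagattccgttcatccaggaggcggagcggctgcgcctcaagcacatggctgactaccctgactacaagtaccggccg
Sox11: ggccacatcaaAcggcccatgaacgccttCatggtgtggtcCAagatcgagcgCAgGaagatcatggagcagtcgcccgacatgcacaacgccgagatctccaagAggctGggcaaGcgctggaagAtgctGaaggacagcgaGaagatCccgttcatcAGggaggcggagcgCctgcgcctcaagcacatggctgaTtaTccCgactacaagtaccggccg
Of the 222 bases, 20 differed, and of the 74 residues 4 differed (94.6% identical). The longest run of identical bases between any 2 SOX genes of a group was 48, found in this pair. Among pairs within a SOX group the median residue identity was 91.9% (79.7 to 98.6%), against 59.5% (40.5 to 93.2%) between groups.

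Within KLF group 2, Klf1, Klf2 and Klf4 are shown because their levels covered most of the range of the group. The fingers span 2 exons in each gene, at chr8:72320170-72320913 on the plus strand for Klf2, chr8:84903430-84904933 on the plus strand for Klf1 and chr4:55528131-55529790 on the minus strand for Klf4. Capitals mark bases that differ from Klf2.
Klf2: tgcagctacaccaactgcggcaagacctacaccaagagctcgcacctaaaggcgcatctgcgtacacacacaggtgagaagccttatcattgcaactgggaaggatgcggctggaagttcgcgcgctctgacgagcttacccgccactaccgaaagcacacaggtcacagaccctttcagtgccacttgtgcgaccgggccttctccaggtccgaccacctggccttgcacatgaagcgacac
Klf1: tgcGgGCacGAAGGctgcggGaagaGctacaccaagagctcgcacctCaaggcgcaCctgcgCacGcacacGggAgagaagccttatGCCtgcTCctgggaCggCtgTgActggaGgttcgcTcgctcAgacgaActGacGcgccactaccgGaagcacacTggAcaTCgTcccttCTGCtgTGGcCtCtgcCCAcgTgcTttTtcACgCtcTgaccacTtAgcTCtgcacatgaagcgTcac
Klf4: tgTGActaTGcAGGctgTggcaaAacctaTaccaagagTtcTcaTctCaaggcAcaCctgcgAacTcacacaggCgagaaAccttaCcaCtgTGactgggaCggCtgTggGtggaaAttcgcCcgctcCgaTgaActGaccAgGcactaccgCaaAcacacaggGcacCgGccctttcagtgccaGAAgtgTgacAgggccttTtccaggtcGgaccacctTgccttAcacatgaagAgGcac
Klf2 and Klf4 differed at 7 residues (91.4% identical), whereas Klf1 differed from Klf2 at 13 (84.0%) and from Klf4 at 12 (85.2%). The median residue identity of the fingers was 79.0% within KLF groups and 64.2% between them. Klf15 and Klf17, which belong to none of the numbered groups, were counted here as a group of their own, at 55.6% identity. Over whole transcripts, none of the 36 members shared an identical window of 100 bases with another member, and 9 shared one with some other gene. Sox4, Sox5, Sox8, Sox17, Sox21, Klf3 and Klf7 did so only with a gene that overlaps them on the opposite strand. Klf12 and Klf17 shared windows in the same orientation with other genes.

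Levels below are in TPM, the deposited transcript abundance corrected for length, as mean ± SD over the 2 libraries (n = 2). Detection required at least 1 TPM in each library. By that rule 56.4% of protein-coding genes were detected, against 11 of 19 SOX genes and 15 of 17 KLF genes. The median was 2.58 ± 0.25 TPM over the SOX genes and 4.22 ± 0.21 over the KLF genes, beside 2.92 ± 0.02 over all protein-coding genes. Expected counts (estimated reads per gene) summed to 37617442 in replicate 1 and 27642765 in replicate 2. With 2 libraries an exact sign-flip test cannot go below p = 0.5, so levels and ratios between genes carry no test.

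The libraries were compared gene by gene with an exact two-sided binomial test of scaled counts, with p-values adjusted by Benjamini-Hochberg over the 16621 mouse genes with a summed count of 20 or more. It sets one library against the other and takes only counting error into account. Genes called differed at least 2-fold with an adjusted p below 0.05, and they made up 4.69% of the genes tested. At an adjusted p under 0.05 with any fold 39.6% of genes passed, 18.4% higher in replicate 1 and 21.2% higher in replicate 2.

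The tissue label was checked against marker genes. Of the cardiomyocyte genes 5 of 5 were detected, and they summed to 5709 TPM in replicate 1 and 6537 in replicate 2. Endothelial, mesenchymal, epicardial and smooth muscle markers were also detected in full. Erythroid markers summed to 46768 and 38852 TPM, and markers of other tissues were present too. Neuron markers summed to 26.8 and 28.2 TPM (4 of 4 detected) and skeletal muscle markers to 10.6 and 11.9 (2 of 3 detected). Neural crest and glia markers summed to 7.49 and 7.14 TPM (1 of 5 detected). All 4 liver markers (Afp, Alb, Apoa1, Ttr) were called higher in replicate 1, with summed TPM of 141 against 24.2. The foregut epithelium markers summed to 7.13 and 3.70 TPM, with 2 of 5 called higher in replicate 1.

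**Figure D1:**
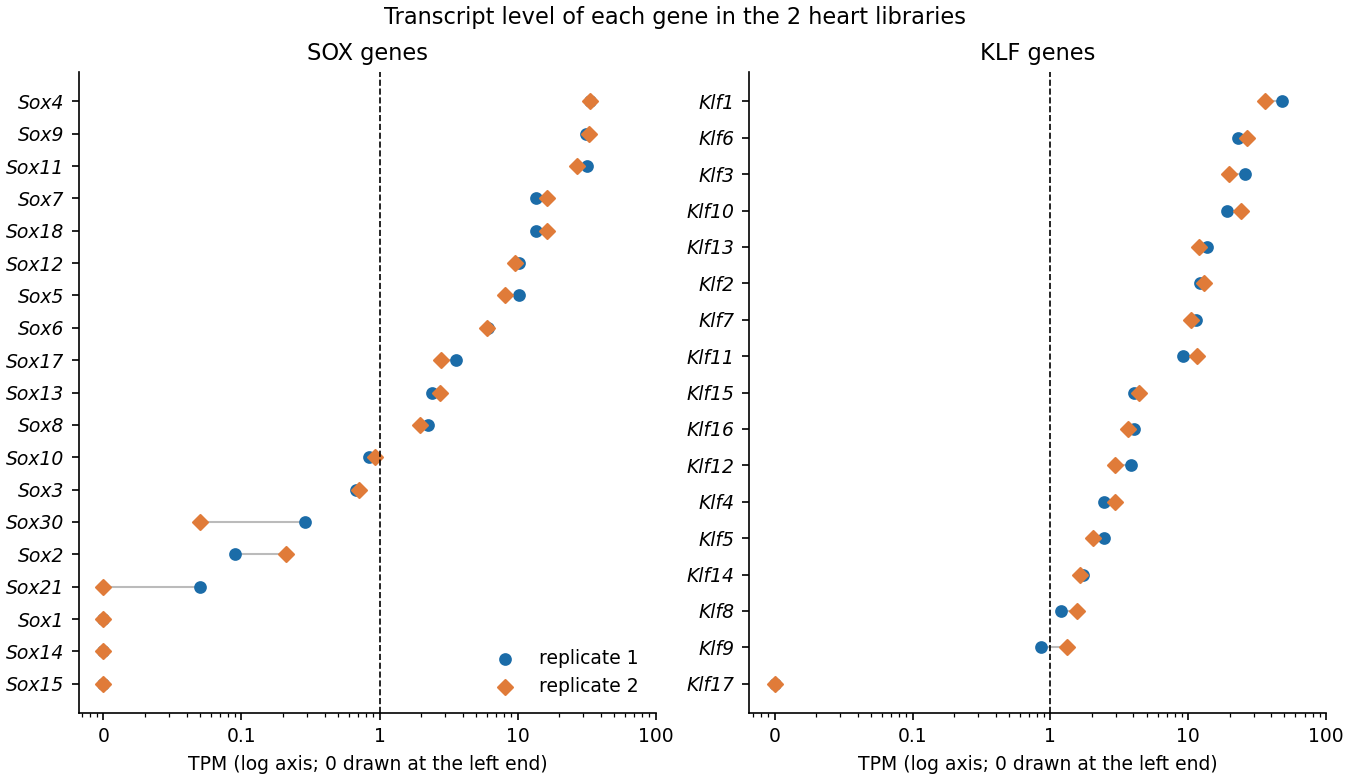
TPM of each SOX gene (left) and KLF gene (right) in replicate 1 (circles) and replicate 2 (diamonds) on a log axis, with genes listed at 0 drawn at the left end and the detection level of 1 TPM as a dashed line. Detected SOX genes run from Sox8 near 2 TPM to Sox4 near 33, and the KLF genes lie above or across the line except Klf17.

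Group C held the largest part of SOX transcripts, 45.5 ± 2.2% of the summed SOX TPM. Sox4, a regulator of outflow tract and cushion development (chromosome 13, 28948919 to 28953713), was highest of the family with 33.50 TPM in replicate 1 and 33.34 in replicate 2. Sox11, its close relative (chromosome 12, 27334264 to 27342574), had 32.08 and 26.96 TPM. Sox12, the third member, known from neural and mesenchymal tissue (chromosome 2, 152393611 to 152398063), had 10.26 and 9.57 TPM.

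Sox4 exceeded Sox11 by a log2 ratio of 0.06 in replicate 1 and 0.31 in replicate 2, a mean of 0.18 ± 0.17. By expected counts, which do not correct for length, the order was the other way, with 7519 and 4460 counts for Sox11 against 4490 and 3154 for Sox4. Sox11 has an annotated length of 8311 bases and Sox4 one of 4795. Sox4 was higher than Sox12 by a log2 ratio of 1.75 ± 0.07. Sox4 also shares 2616 of its 4795 exonic bases (54.6%) with Gm26735, a long noncoding RNA gene on the opposite strand, listed at 12.65 and 12.30 TPM. The strand setting of the counting is not given in the sources used here. Counts of Sox4 (4489.72 and 3154.06) and Gm26735 (920.28 and 631.94) had fractions that complete each other to whole numbers. Reads were thus divided between the 2 genes despite their opposite strands, and the level of Sox4 depends on that division. Which of the 2 genes the shared reads came from cannot be told.

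Group E was carried by Sox9. Sox9, known from cushion and valve mesenchyme and from cartilage (chromosome 11, 112782224 to 112787760), had 31.34 and 32.75 TPM. Its range overlapped that of Sox11 and lay just below that of Sox4. Sox8, known from gonad and neural crest, had 2.24 and 1.97 TPM, and Sox10, a neural crest and glial factor, had 0.84 and 0.93. Sox9 was 15.3-fold higher than Sox8 and 36.2-fold higher than Sox10, in the same order in both libraries. Sox10 lay closest below the detection level, with 63 and 49 counts, so it was measured but fell short of 1 TPM.

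Genes of cartilage-type matrix, known as targets of Sox9, were detected in 6 of 11 cases. Hapln1, a link protein of cardiac jelly and cartilage, was highest at 62.8 ± 15.0 TPM, followed by the collagen gene Col2a1 at 53.0 ± 9.2. Matn1 was lowest at 0.15 ± 0.19. At an adjusted p under 0.05, 5 of the 10 that could be tested were higher in replicate 2 and 2 in replicate 1, beside 21.2% and 18.4% of all genes. Sox9 itself differed by less than its counting error (fold 0.99 in replicate 1 over replicate 2, 95% interval 0.94 to 1.04). Of 12 neural crest and glia genes listed with Sox10, 6 were detected, with a median of 1.44 ± 0.55 TPM over the list. Ednrb led at 72.6 ± 10.3 TPM, then Mitf at 15.3 ± 2.8, with Ret lowest at 0.07 ± 0.06. Of the 5 genes used as markers of neural crest and glia 1 was detected.

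Group F comprised the endothelial factors Sox7, Sox17 and Sox18. Sox7 (chromosome 14, 63943673 to 63950732) had 13.62 and 16.46 TPM. Sox18, known from vascular and lymphatic endothelium (chromosome 2, 181669836 to 181671640), had 13.66 and 16.38 TPM. Their log2 ratio was 0.00 ± 0.01, the closest of the 17 pairs compared. Sox17, which also marks endoderm (chromosome 1, 4490931 to 4497354), had 3.60 and 2.79 TPM. Sox17 was lower than Sox7 by a log2 ratio of -2.24 ± 0.45 and lower than Sox18 by the same ratio, -2.24 ± 0.45, or 0.212 times the level of either.

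Genes known to act in endothelium beside group F were detected in 12 of 12 cases. Tek, an angiopoietin receptor, was highest at 46.7 ± 7.7 TPM, Mef2c followed at 37.7 ± 6.2, and the Notch ligand gene Dll4 was lowest at 3.18 ± 0.69. The median of the list was 15.9 ± 0.6 TPM, near the level of Sox7 and Sox18.

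Group D had a lower share, 11.1 ± 0.7% of SOX TPM. Its proteins lack an activation or repression domain of their own and pair through a coiled coil. Sox5 (chromosome 6, 143828425 to 144781977) had 10.29 and 8.09 TPM, and Sox6 (chromosome 7, 115470872 to 116038796) had 6.10 and 6.05. Sox13, known from T cell development, had 2.40 and 2.76 TPM. The place of Sox5 above Sox6 rested on short and noncoding models, as described with the transcripts below. Sox6 exceeded Sox13 by a log2 ratio of 1.24 ± 0.15.

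SOX genes of neural and germ line tissues were below the detection level. Sox3, a factor of neural progenitors, had 0.68 and 0.71 TPM, with 38 and 28 counts. Sox2, a factor of pluripotent and neural cells, had 0.09 and 0.21 TPM, with 6 and 10 counts. Sox21, a repressor of group B2 known from the nervous system, had 0.05 and 0 TPM, with 5 and 0 counts. Sox30, known from testis, had 0.29 TPM in replicate 1 and 0.05 in replicate 2, with 24 and 3 counts. Sox1, a neural progenitor factor, Sox14, the other repressor of group B2, and Sox15, known from muscle precursor cells, had 0 counts in both libraries, where 3 counts, the limit that a count of 0 allows, is 0.0871 CPM in replicate 1 and 0.119 in replicate 2. Groups B1 and B2 together with G and H made up under 1% of SOX TPM. Of 8 neural progenitor genes 1 was detected, Nes at 9.38 ± 1.79 TPM, a gene not limited to neural cells. The next was Dcx at 0.91 ± 0.01 TPM, and the lowest was Olig2 at 0.03 ± 0.01.

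**Figure D2:**
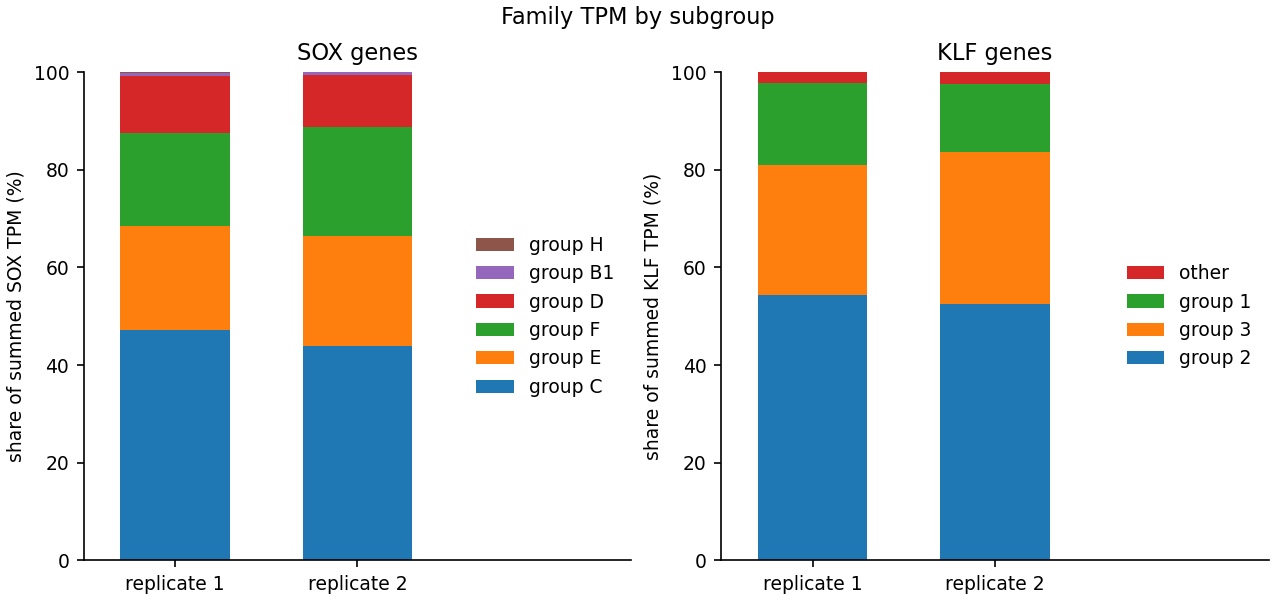
Share of the summed TPM of the SOX genes (left) and KLF genes (right) held by each group in each library, in percent, with bars stacked to 100. Group C leads the SOX genes and group 2 the KLF genes in both libraries, while groups B2 and G are too small to draw.

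Among the KLF genes, group 2 held 53.3 ± 1.3% of the summed TPM, group 3 28.9 ± 3.2% and group 1 15.4 ± 2.1%. Klf1, the activator of globin and other red cell genes (chromosome 8, 84901928 to 84905291), was highest of both families, with 47.66 TPM in replicate 1 and 35.91 in replicate 2. Klf6, a widely expressed member (chromosome 13, 5861482 to 5870394) had 22.87 and 26.93 TPM. Klf2, an endothelial factor induced by blood flow (chromosome 8, 72319033 to 72321656), had 12.27 and 13.12. Klf7, known from neurons (chromosome 1, 64029447 to 64122282), had 11.34 and 10.54. Klf4 and Klf5, known from epithelia, smooth muscle and pluripotent cells, were low, with 2.45 and 2.95 TPM for Klf4 and 2.46 and 2.05 for Klf5.

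Klf1 exceeded Klf2 by a log2 ratio of 1.71 ± 0.36, and Klf2 exceeded Klf4 by 2.24 ± 0.12. The order of Klf4 and Klf5 was not the same in both libraries. Klf6 exceeded Klf7 by 1.18 ± 0.24, although their zinc fingers were the most alike of all KLF pairs within a group, at 95.1% of residues.

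Red cell genes listed with Klf1 were detected in 12 of 12 matched cases, of 13 listed. Whether their levels depended on Klf1 was not tested. The embryonic globin gene Hbb-y was highest at 27103 ± 3137 TPM, followed by Hbb-bh1 at 6081 ± 475, and E2f2 was lowest at 3.92 ± 0.52. Genes of endothelial flow response, known with Klf2, were detected in 6 of 7 cases. Cav1 led them at 55.4 ± 6.6 TPM, Vcam1 followed at 47.9 ± 8.9, and Sele was lowest with 5 and 0 counts. Smooth muscle genes, which Klf4 and Klf5 are known to regulate, were detected in 6 of 6 cases, led by Acta2 at 1234 ± 80 TPM and Tagln at 223 ± 16, with Myh11 lowest at 1.15 ± 0.21.

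The repressor groups were represented by a few genes each. In group 1, Klf3, a repressor known from red cells among others (chromosome 5, 64803388 to 64832901), had 25.83 and 19.78 TPM and exceeded Klf12 by a log2 ratio of 2.74 ± 0.01. Klf12, known as a repressor of the AP-2 alpha gene, had 3.83 and 2.97 TPM, and Klf8, a repressor encoded on the X chromosome, had 1.20 and 1.55. In group 3, Klf10, an early gene of the TGF-beta response (chromosome 15, 38291463 to 38300706), had 19.10 and 24.06 TPM. Klf13, known as a partner of Gata4 in the heart (chromosome 7, 63886351 to 63938915), had 13.80 and 12.05. Klf11, a close relative of Klf10 (chromosome 12, 24651274 to 24662789), had 9.11 and 11.67.

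Klf10 exceeded Klf11 by a log2 ratio of 1.06 ± 0.02, nearly the same in each library although both genes were higher in replicate 2. Klf16, a repressor known from brain, had 4.07 and 3.64 TPM, Klf13 lay above it by 1.74 ± 0.02, and Klf14, the intronless member, had 1.72 and 1.65. Klf9, a hormone-responsive gene, had 0.85 and 1.33 TPM and was the only member past 1 TPM in a single library. Klf9 was lower than Klf13 by a log2 ratio of -3.60 ± 0.60.

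Klf15, a regulator of cardiac metabolism and a brake on growth of the adult heart (chromosome 6, 90462576 to 90475238), had 4.02 and 4.37 TPM. Of 5 genes known with it 4 were detected, led by Bcat2 at 52.7 ± 2.3 TPM and the glucose transporter gene Slc2a4 at 16.5 ± 0.5. Kcnip2, a potassium channel subunit, was lowest at 0.41 ± 0.09 TPM. None of the 5 passed an adjusted p of 0.05 between the libraries in the exact binomial test, and 1 had an unadjusted p under 0.05. Klf17, known from germ cells, had 0 counts in both libraries.

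The co-regulators through which KLF proteins act were all detected, 10 of 10, with a median of 35.3 ± 0.8 TPM. Ctbp1, the partner of group 1, was highest at 152 ± 16 TPM and the deacetylase gene Hdac2 followed at 132 ± 9. Wwp1, a ubiquitin ligase, was lowest at 8.72 ± 0.04 TPM. Beta-catenin and the TCF/LEF factors, with which SOX proteins interact, were detected in 5 of 5 cases. Ctnnb1 was highest at 261 ± 24 TPM, then Tcf7l2 at 53.3 ± 7.0, with Tcf7 lowest at 3.95 ± 0.09.

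Ordered by mean TPM, 7 of 18 neighbouring pairs of SOX genes and 8 of 16 neighbouring pairs of KLF genes had ranges that overlapped between the 2 libraries. These included Sox9 with Sox11, Sox7 with Sox18, Sox12 with Sox5, Klf6 with Klf3, Klf3 with Klf10, and Klf13 with Klf2. The other SOX pairs were Sox30 with Sox2, below 1 TPM, and Sox21 with Sox1, Sox1 with Sox14 and Sox14 with Sox15. Sox1, Sox14 and Sox15 had 0 counts in both libraries, so an overlap at 0 tells nothing of their order. Of the 17 pairs compared, 15 had the same order in both libraries. The exceptions were Sox7 with Sox18 and Klf4 with Klf5.

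The deposited transcript tables divide each gene's TPM among its annotated models. Of the members 22 had a single model and 14 had several, of which 13 had reads. The same model led in both libraries for 11 of the 13, and it held more than 50% in both for 9. By posterior mean the same model also led for 11. The leading model of Sox8 then held 49.17% and 46.29%, and that of Klf8 48.11% in replicate 2, below 50%. Klf3, Klf4, Klf11, Klf13 and Sox12 each had 96.7% or more in 1 protein-coding model, as the mean of the deposited percentages. By posterior mean these shares were lower, from 90.4% for Sox12 to 95.5% for Klf3. The leading model of Klf15 held 100% in replicate 1 and 83.8% in replicate 2, and 81.8% by posterior mean. Klf7 was divided between Klf7-201 at 58.8 ± 4.2% and others.

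Sox5 was the most dispersed, with 14 models. Its leading model, Sox5-208, is a processed transcript of 351 bases without a coding region and held 21.1 ± 9.3%. Models that are not protein-coding held 66.6% of Sox5 TPM. The protein-coding models of Sox5 summed to 3.55 TPM in replicate 1 and 2.63 in replicate 2. Against Sox6, whose models are all protein-coding, this turned the log2 ratio from 0.59 ± 0.24 to -0.99. By expected counts Sox5 was also below Sox6, with 704 and 315 counts against 944 and 637. The order of these group D genes therefore differed with the models and the unit used.

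Sox17 had 8 models and no stable leader: Sox17-204 held 38.93% in replicate 1 and 24.86% in replicate 2, where Sox17-202 held 35.02%. With 173 and 80 counts for the whole gene, the division among models rested on few reads. Gm37587, a processed transcript gene on the opposite strand, overlaps 16.8% of the exonic bases of Sox17. Its counts were 16.19 and 9, and the count of Sox17 in replicate 1 was also fractional, at 172.81. In Sox13 a retained-intron model held 26.7 ± 6.8%, beside 45.1 ± 4.7% for the protein-coding Sox13-203. Short models weigh heavily in TPM, since few reads are divided by a small length. The later annotation has coding models more than 1.5 times as long as those of the files for Klf3, Klf5 and Klf12, and reads beyond the older models were not analysed here.

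**Figure D3:**
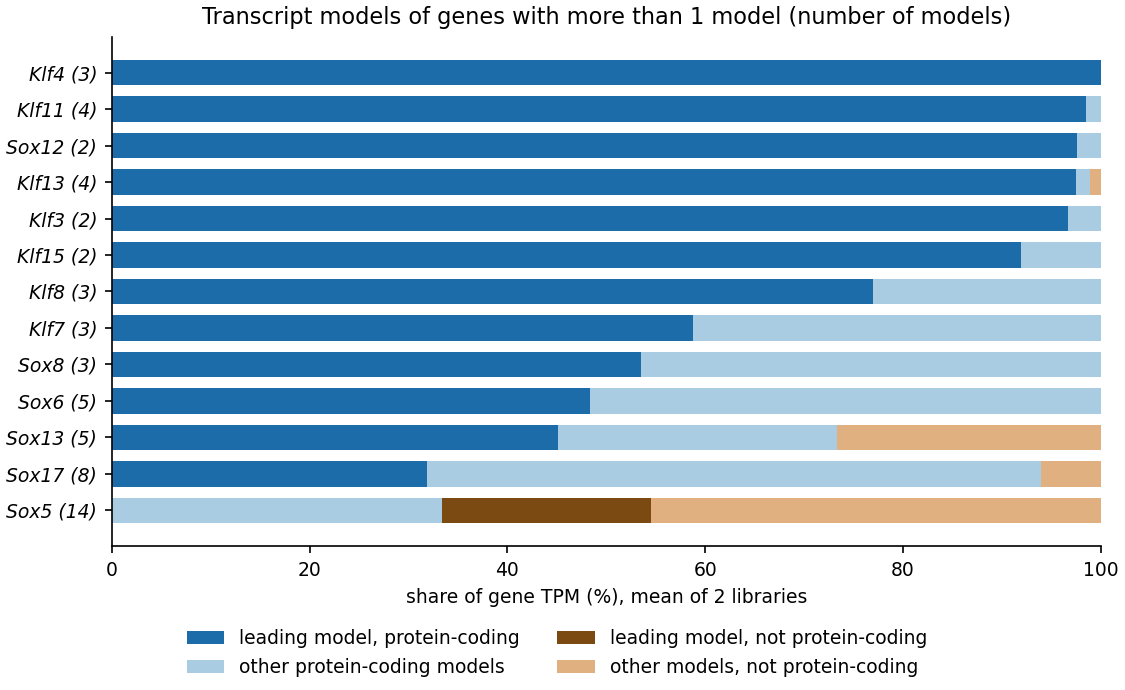
Share of each gene's TPM in its leading transcript model and in other models, split by whether the model is protein-coding, in percent as the mean of 2 libraries, for the 13 members with several models and reads (number of models in brackets). Most KLF bars are a single dark block, while Sox5 is mostly in models that are not protein-coding.

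Between the libraries 30 of the 36 members could be tested (14 SOX, 16 KLF) and 1 was called, beside 779 of all 16621 genes tested (4.69%). The member called was Sox30, with 24 against 3 counts, a fold of 5.11 in replicate 1 over replicate 2 (95% interval 1.77 to 30.3, exact binomial adjusted p = 0.0028). With the minimum raised to a summed count of 100, Sox30 was no longer tested and 0 members were called.

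At an adjusted p under 0.05 with any fold 14 of the 30 members passed. The median absolute log2 ratio was 0.22 over the members and 0.19 over all genes. Of the 14, 8 were higher in replicate 1: Sox5, Sox11, Sox17, Sox30, Klf1, Klf3, Klf12 and Klf13. The other 6, Sox7, Sox18, Klf6, Klf9, Klf10 and Klf11, were higher in replicate 2. Of all 16621 genes tested 6580 passed (39.6%), 18.4% higher in replicate 1 and 21.2% higher in replicate 2.

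**Figure D4:**
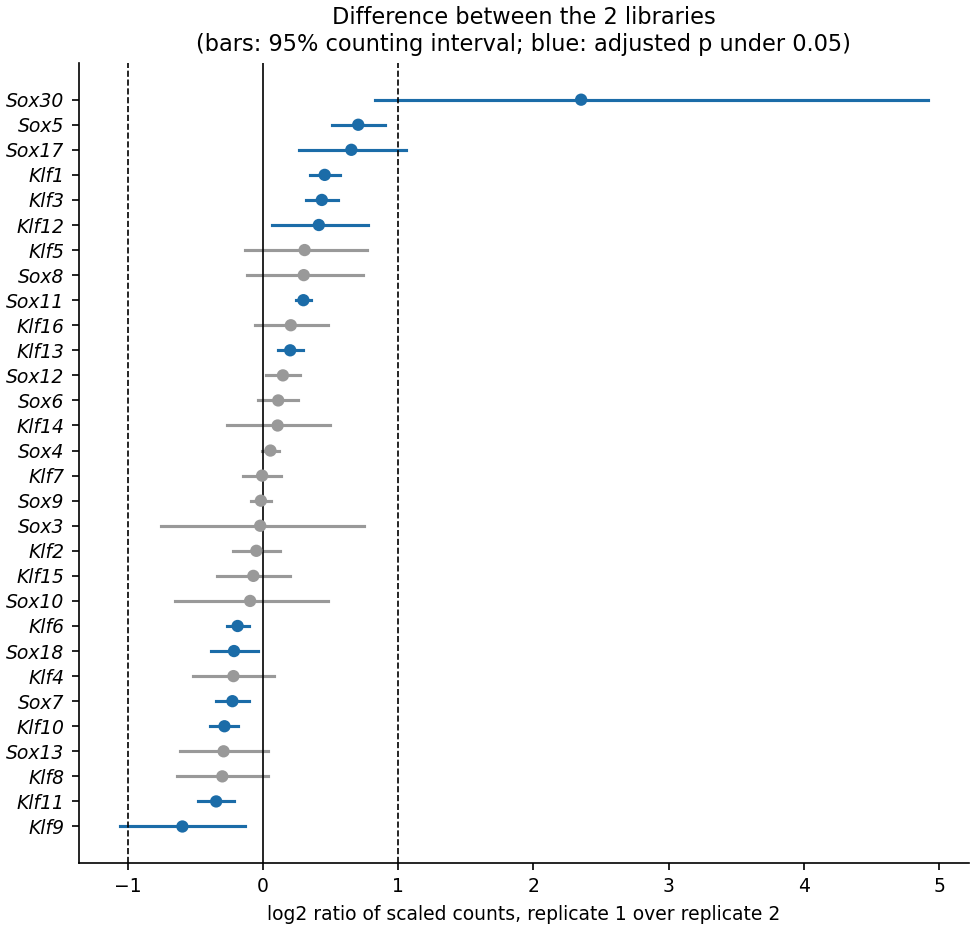
Log2 ratio of scaled counts, replicate 1 over replicate 2, for the 30 members tested, with 95% counting intervals as bars, adjusted p under 0.05 in blue and the 2-fold limits dashed. Sox30 alone lies beyond 2-fold, and the other 29 lie within it on both sides of 0.

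Klf1 was 1.37-fold higher in replicate 1 (95% interval 1.27 to 1.48), with 1952 and 1038 counts. The erythroid markers were higher in replicate 1 in 5 of 5 cases at an adjusted p under 0.05, and their median log2 ratio was 0.29. Of the 12 red cell genes known with Klf1, 10 were higher in replicate 1 and 2 in replicate 2. Klf3 was 1.35-fold higher in replicate 1 (1.24 to 1.47). In bulk tissue, more cells of a type and more RNA per cell cannot be told apart, and the part of red cell content in these differences was not tested.

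The group F genes did not move together. Sox7 was 1.17-fold higher in replicate 2 (95% interval 1.08 to 1.27) and Sox18 1.16-fold higher (1.03 to 1.31). Sox17 was 1.57-fold higher in replicate 1 (1.20 to 2.08), and its interval did not overlap theirs. These folds are of counts, without correction for length. In TPM Sox17 differed less, with 3.60 against 2.79, as its estimated length was 1780 bases in replicate 1 and 1521 in replicate 2. Endothelial markers summed to 182 TPM in replicate 1 and 221 in replicate 2, with 4 of 5 higher in replicate 2 at an adjusted p under 0.05 and none higher in replicate 1. The endothelial context genes were higher in replicate 2 in 8 of 12 cases and in replicate 1 in 3. All 4 liver markers were higher in replicate 1 at an adjusted p under 0.05, as were 3 of the 4 foregut markers that could be tested (Epcam, Foxa2, Nkx2-1). Whether either set of markers has a part in the difference of Sox17 was not tested.

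**Figure D5:**
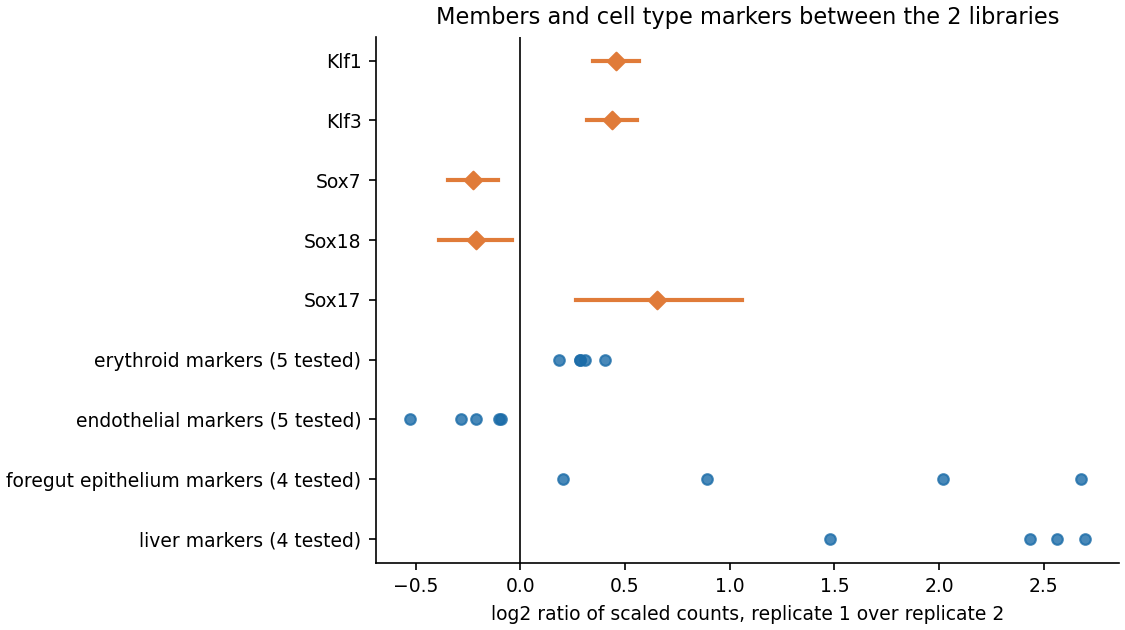
Log2 ratio of scaled counts, replicate 1 over replicate 2, for 5 members (diamonds, bars are 95% counting intervals) and for each tested marker gene of 4 cell types (circles). Sox7 and Sox18 lie left of 0 with the endothelial markers, and Sox17, Klf1 and Klf3 lie right of 0 with the erythroid, foregut and liver markers. The members and marker sets drawn are a selection. Among sets not drawn, cardiomyocyte, mesenchyme, smooth muscle, skeletal muscle and neuron markers had a median below 0. Epicardium, macrophage, and neural crest and glia markers had a median above 0.

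In group D and group C, Sox5 was 1.63-fold higher in replicate 1 (1.43 to 1.87) and Sox11 1.23-fold higher (1.19 to 1.28). Sox4, Sox6, Sox12 and Sox13 did not pass an adjusted p of 0.05. In TPM Sox5 differed less than in counts, with 10.29 against 8.09, as its estimated length was 2496 bases in replicate 1 and 2032 in replicate 2. In KLF group 3, Klf10 was 1.22-fold higher in replicate 2 (1.13 to 1.31), Klf11 1.27-fold (1.16 to 1.39) and Klf9 1.51-fold (1.10 to 2.09), whereas Klf13 was 1.15-fold higher in replicate 1 (1.08 to 1.23). At an adjusted p under 0.05, mesenchyme markers were higher in replicate 2 in 4 of 5 cases, with sums of 575 and 669 TPM. So were 4 of 5 endothelial, 3 of 5 cardiomyocyte and 3 of 4 smooth muscle markers, beside 21.2% of all genes. Higher in replicate 1 were 1 cardiomyocyte marker, 1 smooth muscle marker and 5 of 5 erythroid markers. The part of any of these marker sets in the differences of the members was not tested.

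Gene structure and promoters were described from the annotation. Of the members 9 had a single exon in their longest model, 8 of them SOX genes and the other Klf14. Of these 9, 4 were detected, against 22 of 27 members with several exons and 56.4% of all protein-coding genes. The single-exon members that were not detected are Sox1, Sox2, Sox3, Sox14 and Sox21, the genes of groups B1 and B2. Exon number and group cannot be told apart here, and the share among all single-exon genes was not computed. Exons of 9 members overlapped another gene, on the opposite strand for 8. Beside Gm26735, the overlapping genes above 1 TPM in both libraries were 2810468N07Rik and Mpdu1. 2810468N07Rik covered 10.6% of the exonic bases of Sox8 and had 4.54 and 4.84 TPM, against 2.24 and 1.97 for Sox8. Mpdu1 covered 31 bases of Sox15, which had no counts.

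RefSeq promoter windows of 300 bases on GRCm38.p6, from 250 before to 50 after a start, were matched by symbol for 26 of the 36 members, giving 32 windows. The CACCC core that KLF proteins bind was searched on both strands, as CACCC or GGGTG. Klf1 and Klf2 are shown, as the leading and the flow-responsive members of group 2, with the core in capitals. The window of Klf1 is chr8:84901732-84902031 and that of Klf2 is chr8:72318812-72319111, both on the plus strand.
Klf1 promoter: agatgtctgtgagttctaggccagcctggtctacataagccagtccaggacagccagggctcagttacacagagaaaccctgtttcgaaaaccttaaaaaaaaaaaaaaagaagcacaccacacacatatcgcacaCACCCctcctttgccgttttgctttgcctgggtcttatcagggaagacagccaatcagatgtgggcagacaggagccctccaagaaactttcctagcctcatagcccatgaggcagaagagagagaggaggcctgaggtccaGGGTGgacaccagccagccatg
Klf2 promoter: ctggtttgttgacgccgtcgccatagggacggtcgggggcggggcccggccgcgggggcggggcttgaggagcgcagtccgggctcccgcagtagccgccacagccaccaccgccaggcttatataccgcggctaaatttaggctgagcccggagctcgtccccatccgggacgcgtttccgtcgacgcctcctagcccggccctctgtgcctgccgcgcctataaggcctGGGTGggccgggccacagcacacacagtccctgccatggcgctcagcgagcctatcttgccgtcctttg
The Klf1 window held 2 such matches and the Klf2 window 1. At least 1 match was found in 11 of 14 KLF windows (78.6%), 7 of 18 SOX windows (38.9%) and 57.5% of all 32851 windows. Sox6 alone supplied 6 of the SOX windows, and by gene the counts were 10 of 13 KLF genes and 6 of 13 SOX genes, beside 59.8% of all genes with a window. The ratio of observed to expected CpG was 0.15 for Klf1, the lowest of the member windows, and 0.89 for Klf2, beside medians of 0.68 over the members and 0.38 over all windows. These matches are descriptions of letters in the windows, and no binding was measured.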

How the data were processed

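Total RNA-seq was available for 1 group, the heart at embryonic day 11.5, in 2 libraries. Gene and transcript tables were deposited by the authors for both. Per the file headers, their values are expected counts (estimated, not normalized), TPM (scaled to a fixed sum per library), posterior means of both, and IsoPct, each transcript's percent of the TPM of its gene. The texts deposited with them name mm10 and annotation M4. Aligner, quantifier, versions and strand setting: not given in the sources used here. Reads shared between genes were divided by the authors' model.

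GENCODE M21 (GRCm38, which is mm10) supplied symbols, types and coordinates through the gene identifiers, and 42462 of 43346 mouse genes (98.0%) matched. Depth in mouse genes was 34447169 and 25261719 expected counts. Intervals are exact 95% Clopper-Pearson intervals of the share of reads, turned into folds, and together with the limit of 3 counts they cover counting error only. Levels are means and SD of TPM over the 2 libraries, without a test. Expected counts were rounded and scaled by TMM (edgeR 4.0.16, R 4.3.3). An exact binomial test, two-sided, compared the libraries for the 16621 genes whose counts summed to at least 20, with Benjamini-Hochberg adjustment (scipy 1.17.1, Python 3.11.15), adding 0.5 to each count for the fold. It was tested on simulated data. Alternatives were DESeq2 1.42.0 size factors, count filters, fold limits, TPM cutoffs, posterior means, counts without length, rescaling over nuclear protein-coding genes other than globins, and each library alone. Protein-coding models alone were added after seeing the data.

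The rule for the members uses names alone, but these families, their groups, the gene lists and the pairs were chosen with earlier results of these data known. Every member got its role and level, members at or above their family's median got both library values, as did those nearest 1 TPM, those called and those of a pair. For each other list the 2 highest genes and the lowest were named.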

Additional observations from a re-analysis of the deposited data

How the results depend on the processing

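Detection was the same in either library for SOX genes (11 to 11) and ran from 15 to 16 for KLF genes. At 0.5 TPM or more in both libraries, 13 of 19 SOX and 16 of 17 KLF genes were detected. At 5 TPM or more in both, 8 of 19 and 8 of 17 were, so the gap between the families depended on the cutoff. The median over SOX genes ran from 2.40 to 2.76 TPM by library and became 3.94 when TPM was rescaled over nuclear protein-coding genes other than globins and 7.63 over members with at least 20 counts in all. The KLF median ran from 4.07 to 4.37 and became 6.45 and 7.02 in those settings. Group C held 43.9 to 47.1% of SOX TPM by library and 61.8% by counts without length, and KLF group 2 held 52.4 to 54.3% and 45.8%. Members called numbered 1 with DESeq2 size factors, library totals or no count filter, 0 with a summed count of 100 or more (194 genes in all), 4 at a fold of 1.5 (1496) and 14 with no fold limit (6580), against 779 genes by the main rule. By counts without length the log2 ratio was -0.62 for Sox4 to Sox11 and -0.72 for Sox5 to Sox6, and with protein-coding models alone, chosen after seeing the data, it was -0.99 for Sox5 to Sox6. Between the libraries it ran from -0.0042 to 0.0070 for Sox7 to Sox18 and from -0.0059 to 0.53 for Klf4 to Klf5. No paired analysis was possible because there is 1 group. Low counts limit Sox2, Sox21 and Sox30, and 3 counts limit the genes listed at 0.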

Other observations

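The Sp factors, zinc finger relatives of the KLF family that bind similar GC-rich sites, were detected in 4 of 9 cases. Sp3 was highest at 28.5 ± 1.6 TPM and Sp2 followed at 13.1 ± 0.4, while Sp9 was lowest at 0.02 ± 0.01. In the exact binomial test 2 of the 6 that could be tested were called higher in replicate 1. Of all 16621 genes tested 4.69% were called, 551 of them higher in replicate 1. The 2 Sp genes were Sp5 with 47 against 5 counts (6.30-fold, 95% interval 2.74 to 22.1) and Sp7 with 28 against 7 (2.77-fold, 1.25 to 7.92). Both are under 1 TPM in each library, and they were singled out after their values were seen.

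Of 8 POU and PAX genes known as partners of SOX proteins 1 was detected, Pou2f1 at 12.4 ± 0.2 TPM. Pax6 came next at 0.44 ± 0.24 TPM, and Pou5f1, the partner of Sox2 in pluripotent cells, had 0 counts in both libraries.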
